A study of Mus musculus with 6 samples.

Results

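The genes described here are a set at the centre of muscle wasting: the RING-type ubiquitin ligases of the MuRF family (Trim63, Trim54 and Trim55), the F-box ligases Fbxo32 and Fbxo30, the FOXO transcription factors Foxo1, Foxo3 and Foxo4, and myostatin (Mstn). Every probe set that the platform annotation ties to 1 of these symbols alone was taken, which gave 18 of 45037 probe sets and covered 7 of the 9 listed genes. No probe set carried Trim55 or Mstn as its only symbol, and no signal of either gene is analysed here. The cells were C2C12, an established line of mouse myoblasts, described by the submitters as undifferentiated. All were grown for 72 h in DMEM that held 4 mM glutamine, 1% antibiotics and 10% serum from fetal calves. The 3 untreated samples had the basal medium, and the 3 pyruvate samples had DMEM made without sodium pyruvate to which 50 mM sodium pyruvate was added. It is not stated whether the basal DMEM contained pyruvate, and a control medium of equal sodium or osmolality is not analysed here. Each sample was hybridised to 1 Affymetrix Mouse430_2 array.

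In muscle that wastes, proteins are tagged with ubiquitin and broken down by the proteasome. Trim63 (MuRF1) and Fbxo32 (atrogin-1, also called MAFbx) encode the ligases best known for this, and FOXO factors that enter the nucleus when insulin and AKT signalling is low switch both genes on. Myostatin, a secreted member of the TGF-beta family, limits muscle mass through activin receptors and SMAD proteins, and myogenin can also activate both ligase genes in denervated muscle.

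Signals of different probe sets were not read as relative amounts of transcript, since each binds its target with its own strength. They were ranked to pick a gene's brightest probe set and summed within the marker lists below. Across probe sets, which are not independent replicates, r was 0.985 to 0.991 for 2 arrays of the same group and 0.979 to 0.983 for an untreated and a pyruvate array. The marker list for myotubes had 9 of 10 genes lower in pyruvate cells at a limma adjusted p under 0.05. Its summed signal was 5668 to 6153 on untreated and 705 to 903 on pyruvate arrays. For Tnnt3, Neb, Mybph and Myh3 the pyruvate means (28.2, 16.8, 21.3 and 26.8) lay under the signal filter of about 30.3. These genes passed it only through their untreated arrays. The myoblast list had 2 of 5 genes higher and 2 lower, with sums of 6240 to 6576 and 5691 to 6024. Over all genes past the filter, 20.7% were called higher and 14.5% lower. Lists for fibroblasts (257 to 272 and 235 to 286), adipocytes (98.4 to 135 and 100.2 to 167) and macrophages (239 to 274 and 370 to 436) were dim, with Cd14 the one called gene among them. In such bulk RNA, fewer differentiating cells and less transcript per cell cannot be told apart, and the part of the myotube markers in the results below was not tested.

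Of the 18 probe sets, 14 passed the signal filter (a mean over all 6 arrays of at least about 30.3), in 6 genes, and 4 did not. Among the 14, 3 were called higher and 5 lower with pyruvate at an adjusted p under 0.05, where 16.3% of all probe sets tested were called higher and 15.9% lower. The groups did not overlap for 8 of the 14, with pyruvate higher in 3 and lower in 5. Of all probe sets past the filter, 22.9% were without overlap and higher with pyruvate, and 22.5% without overlap and lower. The 8 pool both directions, so both shares together are their match. By gene, read on the brightest probe set, Foxo1 and Foxo3 were called higher and Fbxo32 lower, against 20.7% and 14.5% of all 10685 genes, and Trim54, Fbxo30 and Foxo4 were not called. Among these 14, the 5 lower calls were in the F-box ligases and the 3 higher calls in FOXO factors. The count of 8 calls fell to 5 without pyruvate replicate 2 and to 5 in the fit without the filter. Without pyruvate replicate 1, the genes called numbered 3 higher and 2 lower, since Foxo4 and Trim54 then passed. Fold changes are given as differences of log2(signal + 16), which understates the change of dim genes.

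**Figure D1:**
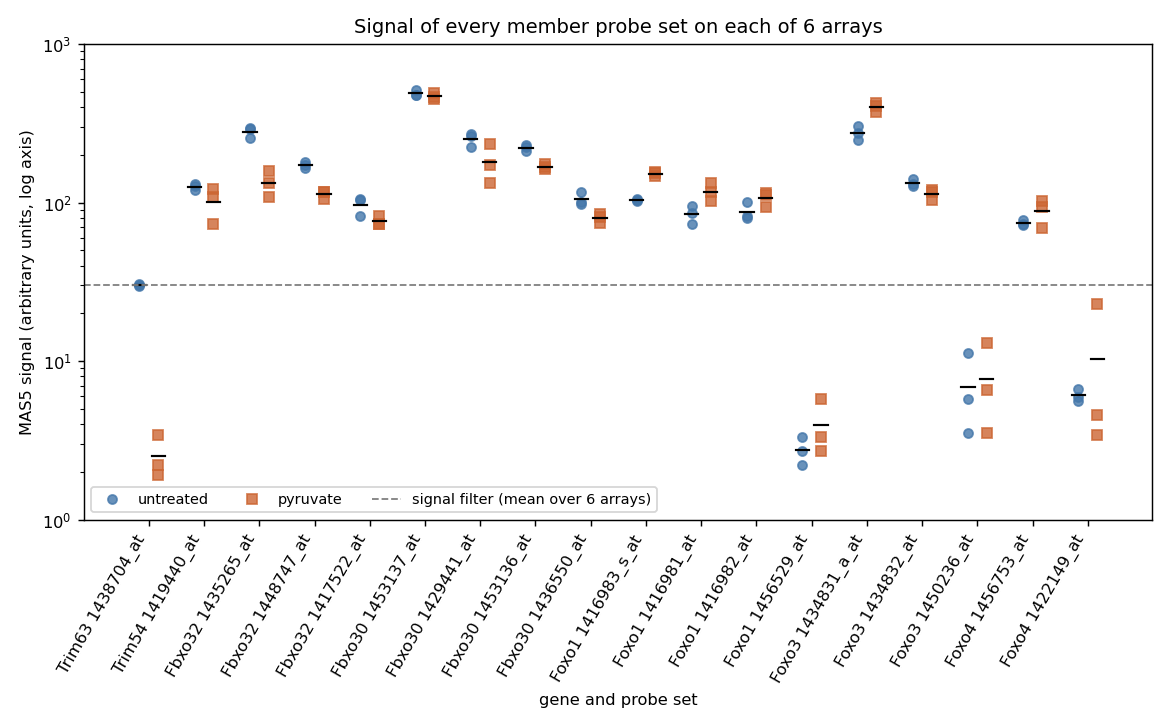
MAS5 signal (log axis) of each of the 18 probe sets on the 3 untreated (circles) and 3 pyruvate arrays (squares), with group means as black bars and the signal filter dashed at 30.3. Trim63 lies at the filter in untreated cells (29.6 to 30.6) and near 0 in pyruvate cells (1.9 to 3.4), while Foxo3 1434831_a_at goes from 249 to 303 up to 375 to 422.

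Trim63, the MuRF family ligase that tags myosin and other thick-filament proteins, had 1 probe set, 1438704_at, and it was dim. Its signals were 29.6, 30.6 and 30.1 on the untreated arrays and 2.2, 3.4 and 1.9 on the pyruvate arrays. The untreated arrays agreed closely, and all 3 pyruvate arrays lay far below them. Its mean over all arrays, 16.3, was under the filter, so it was read from the fit without the filter. There Trim63 fell from 30.1 ± 0.50 to 2.50 ± 0.79 (SD, n = 3 arrays each), or -1.32 ± 0.13 on the log2 scale (SE; limma adjusted p = 0.00055). Of the 22518 probe sets under the filter, 1.06% were called lower in that fit. The size of this change is set by the pseudocount, being -3.17 with 1 and -0.50 with 64 in place of 16, and the pyruvate signals are at the floor of the array.

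The stretch upstream of Trim63 is shown because it holds sites for both kinds of factor named above, together with that of Trim54, the other MuRF gene measured. Both are the 250 bases before the RefSeq transcription start on GRCm38.p6, at chr4:134314870-134315119 (plus strand) for Trim63 and chr5:31116362-31116611 (plus strand) for Trim54. Capitals mark the FOXO core GTAAACA on either strand, the E-box CANNTG that myogenin and MyoD can bind, and the palindrome GAACANNNTGTTC of glucocorticoid receptor half-sites, which was searched for after the Trim63 stretch was seen.
Trim63: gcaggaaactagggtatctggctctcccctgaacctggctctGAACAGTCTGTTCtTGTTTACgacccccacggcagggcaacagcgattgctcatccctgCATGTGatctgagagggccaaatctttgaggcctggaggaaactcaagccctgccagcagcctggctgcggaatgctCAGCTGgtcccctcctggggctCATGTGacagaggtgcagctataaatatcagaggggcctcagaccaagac
Trim54: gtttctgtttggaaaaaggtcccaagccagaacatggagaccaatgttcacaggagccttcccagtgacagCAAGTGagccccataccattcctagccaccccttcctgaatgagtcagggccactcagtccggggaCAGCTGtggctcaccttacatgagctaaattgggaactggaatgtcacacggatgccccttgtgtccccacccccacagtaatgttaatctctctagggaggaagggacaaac

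The Trim63 stretch held 1 FOXO core, as TGTTTAC on the printed strand and starting 194 bases before the start, with 1 glucocorticoid palindrome beginning at 208, separated from it by a single base. It also held 3 E-boxes, at 149, 72 and 50 bases, the middle one of the form CAGCTG. Trim54 held 2 E-boxes, at 179 and 113 bases, and no FOXO core. Among 32851 RefSeq windows of the same 250 bases, 3.17% held the FOXO core and 66.2% an E-box. The CAGCTG form, which is also counted as an E-box, was in 13% and the palindrome in 0.0396%. The palindrome was picked after the Trim63 stretch was seen, so its share does not measure how unusual the match is. Windows were matched for 6 of the 9 listed genes. Fbxo32, Foxo4 and Trim55 had no window and were not searched. Of the other 4 windows, that of Foxo1 held 1 E-box, that of Mstn 4, and those of Fbxo30 and Foxo3 none. The FOXO core was in none of these 4. A match of letters is a description and does not show that a factor binds there.

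Trim54 (MuRF3), which binds microtubules and the sarcomere and keeps the family's RING and B-box domains, had 1 probe set, 1419440_at. Its signals were 131, 126 and 119 on the untreated and 121, 73.5 and 108 on the pyruvate arrays. The groups overlapped through 1 pyruvate array at 121. The log2 change was -0.30 with a 95% interval of -0.61 to 0.01 and did not pass (adjusted p = 0.13). Without pyruvate replicate 1, the array at 121, it was -0.42 and passed (adjusted p = 0.042), so 1 array decided the call. The difference between the changes of Trim63 and Trim54 was not tested.

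Fbxo32 encodes the F-box protein that brings substrates such as MyoD and the translation factor eIF3f to an SCF ubiquitin ligase. Its brightest probe set, 1435265_at, read 254, 295 and 290 on the untreated and 159, 108 and 134 on the pyruvate arrays. Every pyruvate array was below every untreated array by a wide gap. Fbxo32 fell from 280 ± 22.4 to 134 ± 25.7, or -0.996 ± 0.12 on the log2 scale (SE; adjusted p = 8.2e-05), which is a 1.99-fold lower level of signal + 16. A second probe set, 1448747_at, read 180, 166 and 173 against 116, 117 and 106, again without overlap, and fell by 0.55 (adjusted p = 0.00046). The third, 1417522_at, read 104, 105 and 81.7 against 82.8, 73.3 and 72.9. There the lowest untreated array lay within the pyruvate range, and the change of -0.28 did not pass (adjusted p = 0.084), although it did without that array, untreated replicate 3 (-0.38, adjusted p = 0.038).

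All 3 Fbxo32 probe sets were thus lower in the mean, by unequal amounts. The per-array difference between 1435265_at and 1448747_at did not overlap between the groups, with changes that differed by 0.45, and the other 2 pairs were likewise separate. Each had an exact two-sided permutation p of 0.1, the smallest that 3 against 3 arrays allow, and an adjusted p of 0.19 over the 13 pairs of probe sets compared within genes. The platform annotation gives 1448747_at and 1417522_at the same source sequence.

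Fbxo30, the ligase also called MUSA1 that is induced by denervation and held down by BMP signalling, was lower on 3 of its 4 probe sets but not on the brightest. The brightest, 1453137_at, read 478, 509 and 478 on the untreated and 491, 460 and 452 on the pyruvate arrays. These overlapped, and the change was -0.06 with a 95% interval of -0.19 to 0.06 (adjusted p = 0.45). In contrast 1453136_at read 225, 211 and 231 against 167, 163 and 176. Here all pyruvate arrays were lower, and the fall of 0.37 passed (adjusted p = 0.0027).

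The other 2 Fbxo30 probe sets passed less firmly. On 1429441_at the arrays read 271, 223 and 263 against 235, 172 and 132, which overlap, with a change of -0.48 (adjusted p = 0.033). On 1436550_at they read 100.2, 98.3 and 117 against 74.7, 80.8 and 85, without overlap, with a change of -0.33 (adjusted p = 0.031). Neither call held when some single arrays were left out. For 1429441_at the call was lost without untreated replicate 1 or 3 or pyruvate replicate 2 or 3, without the signal filter and without the variance trend, with an adjusted p between 0.0020 and 0.12 over its alternatives. For 1436550_at it was lost without untreated replicate 1 or 3 or pyruvate replicate 1 or 2 and without the filter, with an adjusted p between 0.025 and 0.13.

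In the annotation 1453137_at, 1453136_at and 1429441_at share a source sequence, and 1436550_at has another. The changes of 1453137_at and 1453136_at differed by 0.31 and those of 1453137_at and 1436550_at by 0.27, both with separate arrays (exact p = 0.1, adjusted p = 0.19 over the 13 pairs). Those of 1453137_at and 1429441_at differed by 0.42, but there the arrays overlapped (exact p = 0.2, adjusted p = 0.33 over the pairs). The 3 lower probe sets differed among themselves by no more than 0.15, with exact p-values of 0.6 to 0.8. Averaged over its 4 probe sets, Fbxo30 changed by -0.31 ± 0.06 (SE; adjusted p = 0.0035), so whether the gene counts as lower depends on the probe set read.

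**Figure D2:**
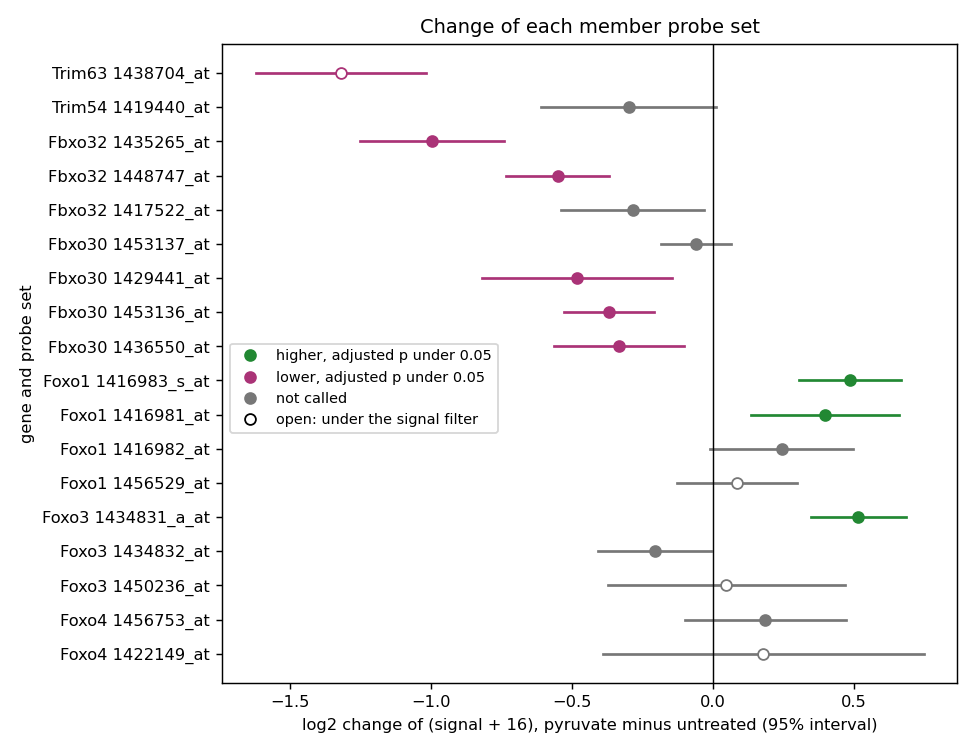
Log2 change of signal + 16, pyruvate minus untreated, with its 95% interval from limma for all 18 probe sets; colours give the call and open circles mark probe sets under the signal filter. The ligases lie at or below 0, from -1.32 for Trim63 to -0.06 for Fbxo30 1453137_at, while the FOXO probe sets lie above 0 except for Foxo3 1434832_at at -0.21.

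Foxo1, a factor that insulin signalling keeps out of the nucleus and that can restrain myoblast differentiation, was higher with pyruvate. The brightest probe set, 1416983_s_at, read 103, 102 and 106 on the untreated and 155, 147 and 153 on the pyruvate arrays. Both groups were tight and far apart. Foxo1 rose from 104 ± 1.99 to 152 ± 4.53, or 0.49 ± 0.08 on the log2 scale (SE; adjusted p = 0.0010). The ending _s_at marks probes that the designers found in more than one transcript, so signal from a related transcript is possible on this probe set and was not tested.

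A second Foxo1 probe set, 1416981_at, read 94.8, 86.5 and 73.1 against 116, 133 and 102 and rose by 0.40 (adjusted p = 0.025). The arrays did not overlap, but the call was lost without untreated replicate 2 or 3 or pyruvate replicate 1 or 2 (adjusted p = 0.054 to 0.098) and without the filter (adjusted p = 0.069). Another, 1416982_at, read 82.1, 101 and 79.6 against 115, 111 and 94.1. These overlapped, and the change of 0.24 did not pass (adjusted p = 0.13). The fourth, 1456529_at, was at the floor, between 2.2 and 5.8 on all 6 arrays. The 3 measured Foxo1 probe sets share a source sequence and leaned the same way, and their average was called higher, by 0.38 ± 0.08 (SE; adjusted p = 0.0042).

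Foxo3, the FOXO factor best known for driving Fbxo32 and autophagy genes in wasting muscle, gave opposite readings on its 2 measured probe sets. The brighter, 1434831_a_at, read 303, 249 and 275 on the untreated and 422, 375 and 406 on the pyruvate arrays. All pyruvate arrays were higher, and it rose from 276 ± 27.2 to 401 ± 23.8, or 0.52 ± 0.08 on the log2 scale (SE; adjusted p = 0.00044). The dimmer, 1434832_at, read 131, 127 and 141 against 104, 119 and 116. There all pyruvate arrays were lower, and the change of -0.21 (95% interval -0.41 to -0.01) did not pass after adjustment (adjusted p = 0.11).

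The 2 changes differed by 0.72, the widest gap among the 13 pairs compared, and the per-array differences did not overlap (exact p = 0.1, adjusted p = 0.19 over the pairs). The annotation gives both the same source sequence, and the ending _a_at marks probes shared by transcripts of one gene. Averaged over both probe sets, the change was 0.16 ± 0.06 (SE) and Foxo3 was not called (adjusted p = 0.073). Another Foxo3 probe set, 1450236_at, was at the floor, between 3.5 and 13 on all arrays. A probe set annotated to Foxo3 together with a predicted gene, 1444226_at, lay outside the rule and under the filter, at 20.0, 23.1 and 18.9 against 26.0, 23.2 and 27.9 (0.19, adjusted p = 0.53).

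Foxo4, the third FOXO factor of muscle, was not called. Its measured probe set, 1456753_at, read 78.1, 73.5 and 72.1 on the untreated and 68.9, 102 and 93.5 on the pyruvate arrays. The pyruvate arrays were spread on both sides of the untreated ones, with a change of 0.19 and a 95% interval of -0.10 to 0.47 (adjusted p = 0.31). Without pyruvate replicate 1, the array at 68.9, the change was 0.33 and passed (adjusted p = 0.048). The other probe set, 1422149_at, stayed between 3.4 and 23.0.

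**Figure D3:**
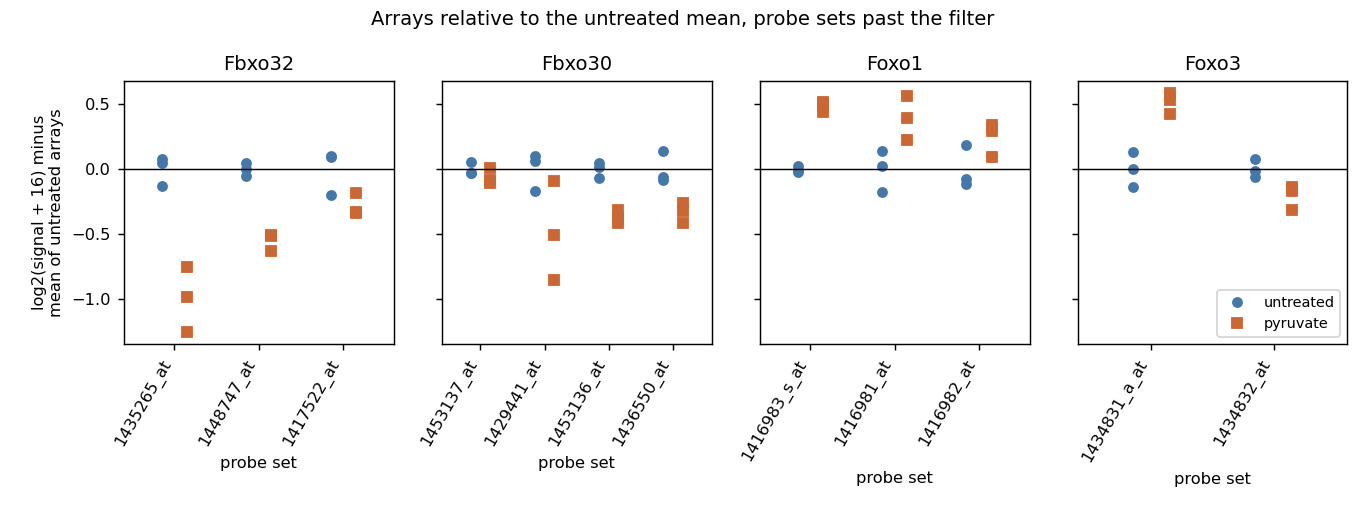
Log2(signal + 16) of each array minus the mean of the 3 untreated arrays, for the probe sets past the filter of 4 genes, with untreated arrays as circles and pyruvate arrays as squares. The 3 Fbxo32 probe sets fall by unequal amounts (-0.996, -0.55 and -0.28), and the 2 Foxo3 probe sets go opposite ways (0.52 and -0.21).

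For the 3 genes with the largest change on a brightest probe set past the filter, the genes of most similar pattern over the 6 arrays were read among 10332 candidates. Fbxo32 was most like Cdk12, Mid1ip1 and Ssbp1, each at a Pearson r of 0.998 or 0.997, and 396 candidates had an r over 0.95. Foxo3 was most like Pdxk, Jdp2 and Inf2 (r = 0.998, 0.998 and 0.997), with 344 over 0.95. Foxo1 was most like Nucb1, Fuca1 and Lgals3bp (r = 0.999 each), with 852 over 0.95. These values describe 6 arrays in 2 groups, where genes that separate the groups in the same direction tend to correlate with each other.

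The signalling around these genes was read in 6 lists, each gene on its brightest probe set, beside 20.7% of all genes called higher, 14.5% called lower and a median log2 change of 0.03 over all genes. In the myostatin and activin pathway, 6 of 19 genes past the filter were higher and 2 lower (median 0.05). The ligand subunit Inhba, which forms activin A, rose from 131 ± 16.3 to 264 ± 26.3, or 0.93 in log2 (adjusted p = 4.9e-05). Inhbb, the subunit of activin B, rose by 0.57 (adjusted p = 0.0012), while another Inhbb probe set was at -0.09 and not called. Fstl3, a secreted protein that binds and blocks activin and myostatin, rose by 0.72 (adjusted p = 0.00023).

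Smad7, an inhibitor of this signalling inside the cell, was called at 0.51 (adjusted p = 0.044). Its untreated arrays were spread (SD 33.7 on a mean of 99.6), and the call was lost without untreated replicate 1 or 3 and without any one of the 3 pyruvate arrays; without untreated replicate 3 the change was 0.29 (adjusted p = 0.14). The 2 genes that fell, named after their values were seen, were receptors: Acvr2a, a type II receptor shared by myostatin and activin, by 0.29, and Tgfbr1, a type I receptor, by 0.25. The antagonist follistatin (Fst) was at 38.7 and 45.8, and the receptor Acvr2b was under the filter, at 19.0 and 21.1.

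Regulators of FOXO activity moved both ways, with 5 of 24 higher and 7 lower and a median of -0.06. Sgk1, a kinase that phosphorylates FOXO factors much as AKT does, rose from 752 ± 27.3 to 1176 ± 59.4, or 0.63 in log2 (adjusted p = 9.6e-06). Skp2, an F-box protein that targets FOXO1 for breakdown, fell from 542 ± 15.9 to 325 ± 21.3, or -0.71 in log2 (adjusted p = 1.2e-05), and 4 of its other 5 probe sets past the filter were called lower too. The growth factor Igf2 fell by 1.00 (adjusted p = 0.0033) from a dim 60.9 ± 1.42 to 23.7 ± 11.6. Its pyruvate mean was under the filter, which it passed only through the untreated arrays. The deacetylase Sirt1 fell by 0.47 (adjusted p = 0.00053). Akt1 rose by 0.19 (adjusted p = 0.019), while Akt2 was at -0.15 and not called (adjusted p = 0.063), both named after their values were seen.

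Among reported FOXO target genes 8 of 27 were higher and 6 lower (median 0.04). Bnip3, a mitophagy receptor, fell from 807 ± 10.2 to 365 ± 24.7, or -1.11 in log2 (adjusted p = 2.9e-07). Cdkn1b, the cell cycle inhibitor p27, fell by 0.63 (adjusted p = 8.3e-05), and its other probe set was at -0.31 and not called. Cited2, a binding partner of CBP and p300, rose by 0.61 (adjusted p = 2.9e-06), with its other probe set called higher as well. Pdk4, a kinase that inhibits pyruvate dehydrogenase, rose by 0.60 (adjusted p = 0.00026). Bnip3 and Pdk4 also answer to other factors, so this list is not specific to FOXO.

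The regulators of the ligase genes themselves had 3 of 18 higher and 3 lower, with a median of -0.00078. Myog, the myogenic factor that can activate Trim63 and Fbxo32, fell from 1738 ± 44.1 to 212 ± 40.1, or -2.96 in log2 (adjusted p = 1.1e-08). Ppargc1b, a coactivator, fell by 0.80 (adjusted p = 6.2e-05). Nr3c1, the glucocorticoid receptor, rose by 0.54 (adjusted p = 0.00019) on its brightest probe set. Of 4 others, with changes from -0.13 to 0.29, 1 was called higher and 3 were not called. Tsc22d3, a gene that glucocorticoids induce, fell by 0.32 (adjusted p = 0.0019). Among 3 further probe sets, with changes from -0.17 to 0.30, 1 passed as lower and 2 were not called.

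The list of other ubiquitin ligases, parts of the SCF complex and ubiquitin-conjugating enzymes had 5 of 16 higher and 3 lower, with a median of 0.02. The 3 lower genes were the conjugating enzymes Ube2d1 and Ube2g1 and the SCF part Cul1. Ube2g1 and Cul1 are named after their values were seen. Ube2d1, a ubiquitin-conjugating enzyme, fell from 1556 ± 42.1 to 1038 ± 4.70, or -0.58 in log2 (adjusted p = 5.7e-06). Mdm2, the ligase that degrades p53, rose by 0.49 (adjusted p = 0.00038), with a further probe set at 0.98, and Nedd4 rose by 0.29 (adjusted p = 0.00089). Of 2 further Nedd4 probe sets, at 0.09 and 0.25, 1 was called higher and 1 was not called. Trim32, a muscle ligase of the wider TRIM family, was called at 0.27 (adjusted p = 0.040), a call lost without untreated replicate 2 or 3 or pyruvate replicate 1 or 3. The count of higher genes was 2 without untreated replicate 2, 3 without untreated replicate 1 or 3 or pyruvate replicate 1, and 2 in the fit without the variance trend.

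Partners and substrates of the ligases had 4 of 14 higher and 6 lower, with a median of -0.16. The 6 lower genes all encode sarcomere proteins, with Ttn and Myl1 named after their values were seen. The myosin light chain Mylpf fell from 1360 ± 89.6 to 225 ± 46.1, or -2.53 in log2, and the troponins Tnni1 and Tnni2 were at -2.40 and -2.04, with a further Tnni2 probe set called lower at -2.09. The embryonic myosin heavy chain Myh3 was at -1.95, the giant protein titin (Ttn), to which MuRF proteins bind, at -1.89, and Myl1 at -1.74. Myh3 passed the filter only through its untreated arrays, with means of 149 untreated and 26.8 with pyruvate. Mylpf, Myh3 and Ckm (-0.23, not called) are also on the myotube marker list, as is Myog of the regulator list above. Myod1 and Des are on the myoblast list, so these counts are not independent of the marker lists. The higher genes were Vim at 0.50, the ubiquitin-binding autophagy receptor Sqstm1 at 0.33, Myod1, itself a substrate of Fbxo32, at 0.26, and Ppp3ca at 0.19, named after their values were seen. Eif3f, the other Fbxo32 substrate named above, was at 2718 and 2897.

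**Figure D4:**
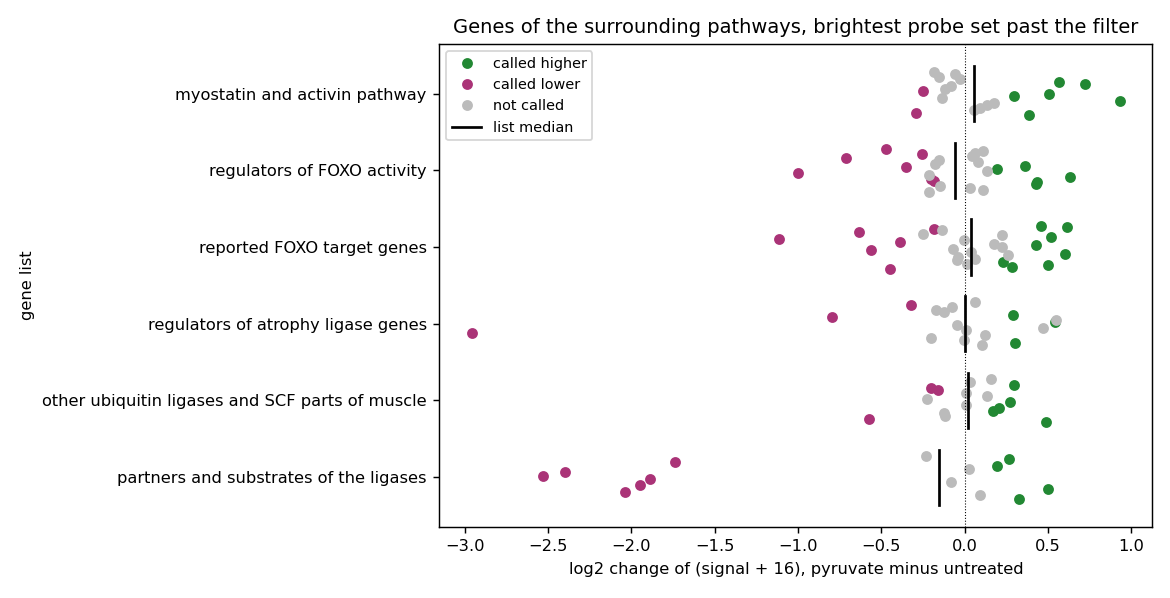
Log2 change of signal + 16, pyruvate minus untreated, for each gene past the filter in 6 lists around the ligases, FOXO factors and myostatin; each point is a gene, coloured by call, vertical jitter within a list carries no meaning and the black bar is the list median. Medians lie between -0.16 and 0.05, and the points below -1.5 are Myog and sarcomere genes.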

How the data were processed

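The authors deposited a linear MAS5 intensity for each probe set on each array, per the submitters' processing notes, with version and settings not stated. The trimmed mean (lowest and highest 2% left out) was 150.0 on all 6 arrays, so the deposited intensity values were already scaled to a common level, and that scaling was kept. Arrays carry no read depth, and their number limits the precision. Whether the samples came from separate cultures is not stated, so p-values cover the spread of these samples alone, which may be technical.

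Of 45101 probe sets 64 controls were left out. Symbols came from the platform annotation: 34945 probe sets had 1 symbol, 932 several and 9160 none. Signals were taken as log2(signal + 16), and 22519 probe sets with a mean at or above the median (log2 value 5.53) were fitted with limma 3.58.1 in R 4.3.3 (lmFit, eBayes with trend, two-sided, Benjamini-Hochberg over all probe sets fitted, threshold 0.05). Probe sets under the filter were read from a fit of all 45037. A gene was read on its brightest probe set. Standard errors and 95% intervals are limma's. The step was tested on simulated data, where it missed small changes more often than large ones. A probe set that was not called may therefore still have changed. Of 182 list entries, 172 matched a symbol. From each list up to 4 called genes with the largest absolute change are named, and the genes of most similar pattern are the 3 with the highest r. The members and lists were chosen with earlier results of these data known. Alternatives were pseudocounts of 1 and 64, no filter and a filter at the 75th percentile, quantile and cyclic loess normalization, no variance trend, a replicate block, the mean of a gene's probe sets, and each array left out in turn. Promoter windows are RefSeq's (GRCm38.p6). Figures were drawn with matplotlib 3.10.9.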

Additional observations from a re-analysis of the deposited data

How the results depend on the processing

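Over 235 refits of the 18 probe sets under the alternatives, 213 kept direction and side of the threshold, 16 lost the call, 3 gained one and 3 changed sign. The sign changes were on uncalled probe sets at the floor: with 1 array left out, Foxo3 1450236_at ranged from -0.11 to 0.18, negative at -0.06 without untreated replicate 1 and at -0.11 without pyruvate replicate 1, and Foxo4 1422149_at from -0.14 (without pyruvate replicate 2) to 0.36. Trim63, Fbxo32 1435265_at and 1448747_at, Fbxo30 1453136_at, Foxo1 1416983_s_at and Foxo3 1434831_a_at kept their calls in every alternative run on them. Of the 14 probe sets past the filter 8 were called as reported, 5 without the filter, 4 with the filter at the 75th percentile, where dimmer ones are not tested, and 5 to 8 with 1 array left out, the lowest without pyruvate replicate 2. Genes called higher numbered 2 as reported, 1 with the stricter filter (Foxo1 not tested), 1 with the mean of a gene's probe sets (Foxo1 alone) and 2 to 3 with 1 array left out. Genes called lower numbered 1 as reported, 2 without the filter (Trim63 added), 2 with the mean of a gene's probe sets (Fbxo30 added) and 1 to 2 with 1 array left out. Over all probe sets, 2797 to 3489 were called higher and 2580 to 3559 lower with 1 array left out. With the stricter filter the myostatin and activin list had 3 genes higher and the partner list 3 lower, and without the filter the list of other ligases had 3 higher. Quantile and cyclic loess normalization changed none of the 18 calls. Same-numbered arrays shared no common deviation, with correlations of -0.01 to 0.02, which does not settle whether samples were paired by culture or day. With the replicate block 8 of the 14 probe sets were called, 3510 probe sets in all were higher and 3407 lower. Signals of a few units, as for Trim63 with pyruvate, give a direction but no reliable fold.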
